A study of Saccharomyces cerevisiae with 3 samples.

Results

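Internal transcribed spacer 1 (ITS1) is the stretch of the yeast 35S pre-rRNA gene that separates the 18S rRNA from the 5.8S rRNA. All positions that the deposited table assigns to ITS1 were taken, which gave every position from 2501 to 2861 of the 6858 in the gene, 360 with a value and 1, the first, listed at 0 throughout. Positions are counted from the start of the transcript. In assembly R64-1-1 these positions lie on chromosome XII from 464709 to 465069, on the minus strand, where the annotation gives the spacer as *ITS1-2* within *RDN37-2*, with *RDN18-2* before it and *RDN58-2* after it. Occupancy of RNA polymerase I (Pol I) was measured by native elongating transcript sequencing (NET-seq) in 3 replicates of *hmo1Δ* yeast, which carry *hmo1Δ*::*URA4* and the tagged Pol I subunit (His)7-(HA)3-*RPA135*::*TRP1*. The reference is the authors' median of WT yeast, which carries the same tagged subunit and an intact *HMO1*. Each replicate was a separate culture in YEPD at 30 °C, and Pol I was purified through the tag. Single WT values are not used here, so WT values have no error of their own. The WT libraries came from an earlier series, so the effect of the strain cannot be told apart from that of the series.

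ITS1 is transcribed but not kept in the ribosome. In *Saccharomyces cerevisiae* it is cut at site A2, which parts the precursors of the small and the large subunit, and nearer to 5.8S at site A3, the target of RNase MRP. Hmo1 is an HMG-box protein that binds active rDNA, and the data bear on where Pol I stands when it is missing. In NET-seq the 3′ end of an RNA held by Pol I marks the last base added, and a high value at a position means that Pol I was caught there often. The deposited positions are read here as that last base.

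The sequences on which the comparison turns are given first, as RNA from 5′ to 3′. The first holds the only long stretch of ITS1 in which occupancy was lower than WT, and its capitals mark the 14 positions of that stretch.

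Positions 2680 to 2733, chrXII:464837-464890: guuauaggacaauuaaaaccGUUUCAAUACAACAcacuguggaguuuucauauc

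The next sequences surround 6 of the 10 positions with the highest *hmo1Δ* median. Each shows the 20 bases before the position and the 5 after it, and the capital marks the position itself.

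Position 2549, chrXII:465016-465041: uuuuuuguuuuggcaagagcAugaga
Position 2571, chrXII:464994-465019: gagagcuuuuacugggcaagAagaca
Position 2617, chrXII:464948-464973: ggccugcgcuuaagugcgcgGucuug
Position 2659, chrXII:464906-464931: cuuucuugcuauuccaaacgGugaga
Position 2666, chrXII:464899-464924: gcuauuccaaacggugagagAuuucu
Position 2776, chrXII:464789-464814: uucgagcaaucggggcccagAgguaa

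The values are RPM, reads that the authors scaled to a total of 1000000 over the gene as far as the T1 terminator. The replicates held 1985964 to 3704662.5 reads over the gene, computed from the smallest steps between values, each worth 1 read. ITS1 held 87003, 47463 and 65373 of these reads in replicates 1, 2 and 3, and its median position held 129, 71 and 99 reads. Counting error alone was then 8.80%, 11.9% and 10.1% at a median position. The first base of ITS1, position 2501, was at 0 in every column together with the last bases of 18S at 2499 and 2500, and it enters no count of positions above or below WT.

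ITS1 took about double the share of the gene's reads in *hmo1Δ*. The summed occupancy was 23512, 23919 and 23262 RPM in replicates 1, 2 and 3, against 11129 RPM in the authors' WT median. The replicates lay close together in this sum, and all were far above WT. The log2 ratio to WT was 1.08 ± 0.02 (SD, n = 3), or 2.12-fold. ITS1 took 2.35% ± 0.033 of the gene's occupancy in *hmo1Δ* and 1.11% in WT. In *hmo1Δ* 27.6% ± 0.19 of that total lay in 18S and 59.3% ± 0.40 in 25S (SD, n = 3). As the study states, such libraries hold some mature rRNA beside nascent RNA, so a share of the total is not a share of nascent RNA alone, and the part of mature rRNA in these ratios was not tested. The level of a typical position rose somewhat less than the sum, by a log2 ratio of 0.99 ± 0.02 (SD, n = 3). The median position held 34.9, 35.8 and 35.2 RPM in the replicates and 17.8 RPM in WT.

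The other internal spacer, ITS2, had a log2 ratio of summed occupancy of 0.99 ± 0.03 (SD, n = 3), and ITS1 exceeded it by 0.09 ± 0.04. The difference was positive in all 3 replicates (0.05, 0.13 and 0.09) and turned to -0.026 when the 10 positions at each end of both spacers were left out. ITS1 exceeded the 5′ external spacer, ETS1, by 1.00 ± 0.10 on the log2 scale, with 1.02, 0.90 and 1.09 in the replicates. An exact two-sided sign-flip test over the 3 replicates gave p = 0.25 for each difference, which is the smallest value that 3 replicates allow. The 3′ external spacer, ETS2, gave a difference of -0.13 ± 0.30 with an exact sign-flip p of 0.5. ETS1 itself had a log2 ratio of 0.08 ± 0.12. Scaling both strains to their total over the 4 spacers lowered the log2 ratio of ITS1 from 1.08 to 0.54.

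**Figure D1:**
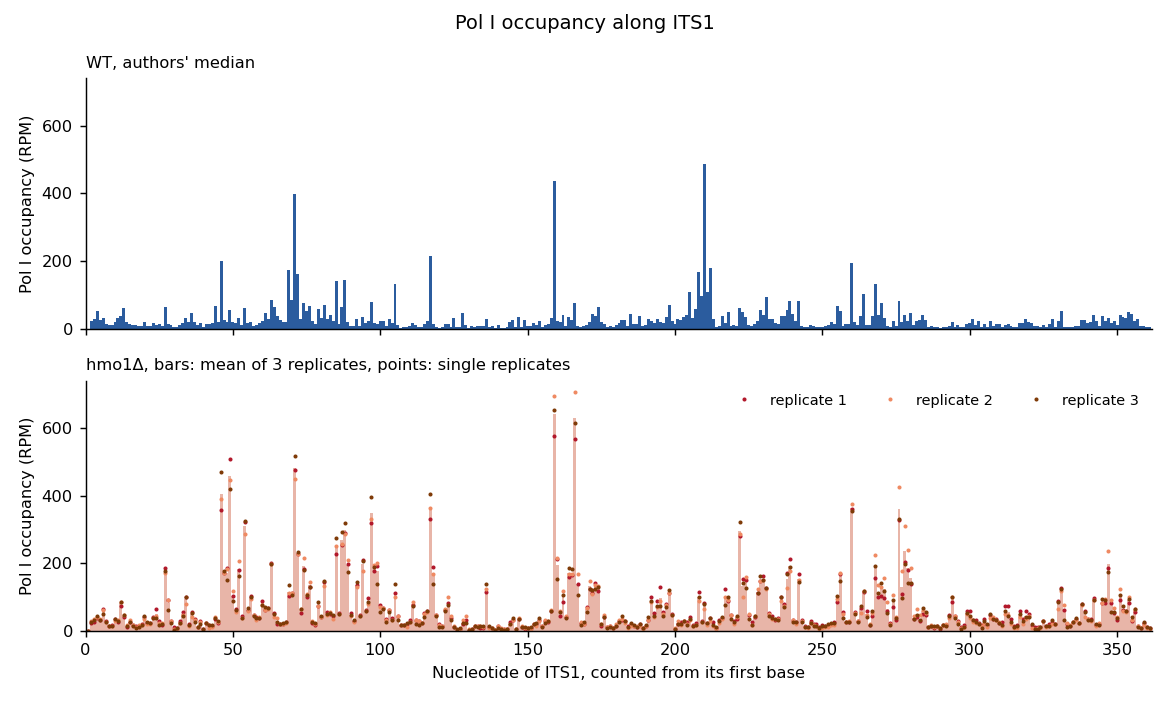
Pol I occupancy in RPM (y axis, same scale in both panels) at each nucleotide of ITS1, counted from its first base (x axis), in the authors' WT median (upper panel) and in *hmo1Δ* (lower panel, bars for the mean of 3 replicates and points for the replicates). WT is highest at nucleotide 210 with 488 RPM, where *hmo1Δ* is low, and *hmo1Δ* is highest at nucleotides 159 and 166.

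The increase covered most of the spacer. Every replicate exceeded the WT median at 289 of 360 positions (80.3%), while over the whole gene this held at 44.2% of positions. The share was like that in ITS2 (83.1%) and ETS2 (79.9%), and above that in ETS1 (48.3%). All 3 were below it at 38 positions (10.6%), against 37.2% over the gene, and 33 positions had replicates on both sides. With both strains scaled to their total over ITS1, which takes out the higher sum, 155 positions were above WT and 154 below. At 169 positions (46.9%) every replicate was at least 2-fold above WT, against 12.5% over the gene. At 9 positions (2.5%) every replicate was at least 2-fold below, where the gene gave 1.72%. The authors' coefficient of variation over their WT replicates gave a stricter rule, by which all replicates had to differ from the WT median by over 2 times that variation. By it 253 positions (70.3%) were above, with 30.4% over the gene, and 22 positions (6.11%) were below, with 19.5% over the gene.

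With 80.3% of positions above WT, most of these necessarily lay next to each other. They formed 35 runs, 4 of them with 20 positions or more, and the longest covered the 47 positions from 2754 to 2800. Its sum was 3377, 4043 and 3416 RPM in replicates 1, 2 and 3 and 1372 RPM in WT, a log2 ratio of 1.39 ± 0.15 (SD, n = 3). The longest such run was 37 positions in 25S, 26 in ITS2 and 25 in ETS2. Run length depends on the length of the region and on its share of positions above WT, which was 41.4% in 25S. Positions below WT formed 20 runs, of which 15 were single positions.

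One stretch went the other way. From position 2700 to 2713, which are nucleotides 200 to 213 of ITS1, all 14 consecutive positions were below WT in all 3 replicates. The next longest run below WT in ITS1 had 3 positions, but longer ones stood elsewhere in the gene, with 35 positions in 18S and 20 in 25S. The 14 positions summed to 496, 403 and 443 RPM in replicates 1, 2 and 3 and to 1408 RPM in WT. No replicate came near the WT sum, and the log2 ratio was -1.66 ± 0.15 (SD, n = 3), or 3.16-fold lower. The stretch rested on 1837, 799 and 1246 reads.

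The stretch held the highest position of ITS1 in WT, the A at position 2710. It stood at 488 RPM in the WT median and at 81.6, 65.0 and 80.4 RPM in *hmo1Δ*, 6.44-fold lower. The WT value alone was above the sum of all 14 positions in replicates 2 and 3. Beside it, the A at position 2711 had 108 RPM in WT against 23.5, 16.1 and 23.5 RPM. The C at position 2712 had 180 RPM in WT and 37.8, 27.7 and 38.1 RPM in the replicates. The A at position 2708 differed least of the high positions here, with 166 RPM in WT and 114, 88.7 and 99.3 RPM in *hmo1Δ*. By the rule for peaks given further on, it was a peak in *hmo1Δ* and not in WT, where 2710 stands within 5 bases of it. Of the 14 positions, 6 were at least 2-fold below WT in every replicate. These include the 5 largest falls by fold in ITS1, and 7 of the 10 largest falls in RPM lay in the stretch.

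The positions around the stretch were mostly above WT. Its bounds follow from the rule that all replicates lie below WT, and near its start the fall was small at some positions. Nucleotide 201 of ITS1 had 18.6, 27.7 and 20.3 RPM against 28.3 RPM in WT, and nucleotide 203 had 27.6, 29.7 and 28.5 RPM against 34.3 RPM. The 10 positions before it had 714, 612 and 615 RPM in the replicates and 272 RPM in WT, with all 10 above WT. The 10 positions after it had 833, 748 and 821 RPM and 252 RPM in WT, with 9 above WT. These are log2 ratios of 1.25 ± 0.13 and 1.66 ± 0.08 (SD, n = 3), next to the -1.66 of the stretch between them. With the 14 positions left out, an alternative chosen after seeing the data, the log2 ratio of ITS1 was 1.25 ± 0.02. The sequence printed above shows that the stretch runs into an alternation of A and C followed by a G-rich tract. As background, the A2 cut of this yeast has been mapped to this ACA tract of ITS1. The table does not annotate the cut, and a 3′ end left by cleavage cannot be told apart from a nascent 3′ end in these values. The signal at the 3′ end of 18S, at position 2498, was also lower in *hmo1Δ*, with 2032, 2125 and 2684 RPM against 4629 RPM in WT. Whether RNA processing has a part in either difference was not tested.

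**Figure D2:**
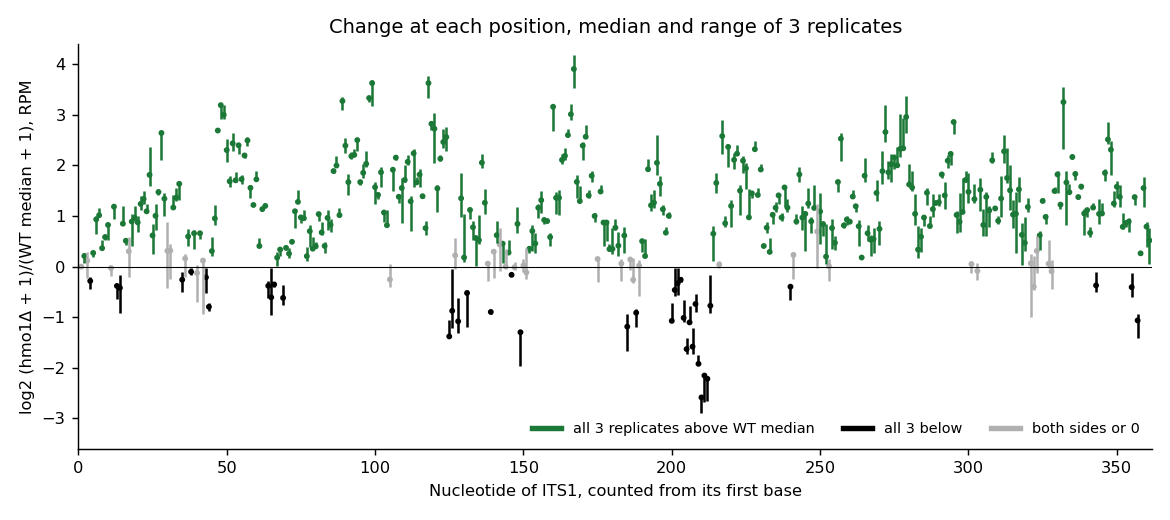
The log2 ratio of *hmo1Δ* to the WT median after adding 1 RPM to both (y axis) at each nucleotide of ITS1 (x axis), as the median (point) and range (line) of 3 replicates. Green marks the 289 positions with all replicates above WT and black the 38 with all below, of which 14 stand together at nucleotides 200 to 213.

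Cut into 6 segments of 60 positions, the last of 61, ITS1 showed higher occupancy in each segment in every replicate. The first segment, next to 18S, had 3838, 3693 and 3685 RPM in the replicates and 1460 RPM in WT, a log2 ratio of 1.36 ± 0.03 (SD, n = 3). The second, the most G-rich with 36.7% G, had 1.09 ± 0.02 and held the largest share of ITS1 occupancy, 25.2% to 26.6% in *hmo1Δ* and 25.7% in WT. The third had 1.39 ± 0.09, the fifth 1.34 ± 0.12 and the sixth, next to 5.8S, 1.21 ± 0.04, and these overlap in part within their SD. The fourth segment stood apart with 0.38 ± 0.08, and it held 24.7% of ITS1 occupancy in WT and between 14.2% and 16.1% in the replicates. Without the 14 low positions its ratio was 1.22 ± 0.07, inside the range of the other segments.

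**Figure D3:**
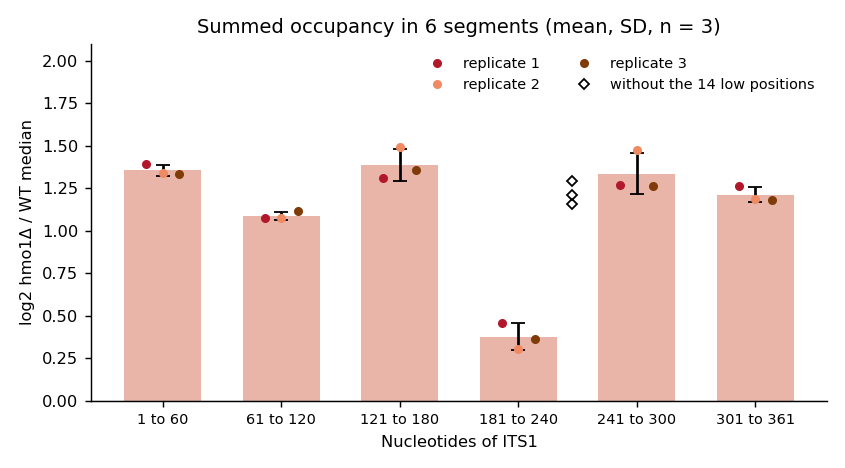
The log2 ratio of summed occupancy of *hmo1Δ* to the WT median (y axis) in 6 segments of ITS1 (x axis, first and last nucleotide), with bars and error bars for the mean and SD of 3 replicates and points for the replicates. The segment from nucleotide 181 to 240 is lowest at 0.38, and the open diamonds show its replicates without the 14 low positions, at a mean of 1.22.

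The pattern along ITS1 also differed from WT by more than the replicates differed among themselves. Spearman coefficients between *hmo1Δ* replicates were 0.972 to 0.978 over the 360 positions, and those with the WT median were 0.690, 0.694 and 0.739. Positions of 1 gene share libraries and neighbouring positions are not independent, so these are descriptions. The share of ITS1 occupancy that would have to be moved to other positions to turn one profile into the other was 6.87% to 7.72% between replicates. To turn a replicate into WT it was 30.2%, 30.4% and 27.6%. This share was 26.1% ± 2.22 in ITS2 and 31.6% ± 1.69 in ETS1 (SD, n = 3). The 10 highest positions held 18.6% ± 0.84 of ITS1 occupancy in *hmo1Δ* and 23.5% in WT.

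Of the 10 highest *hmo1Δ* positions, 5 were also among the 10 highest in WT and 5 were not. The G at position 2659 was the highest by the median of the replicates, with 578, 695 and 653 RPM against 436 RPM in WT, where it was second. The A at position 2571 had 476, 449 and 516 RPM against 398 RPM in WT. At both, every replicate was above WT, yet by less than the spacer as a whole, 1.47-fold and 1.21-fold. Position 2617 (G) with 331, 364 and 404 RPM against 215 RPM, position 2546 (A) with 356, 390 and 469 RPM against 201 RPM, and position 2760 (A) with 353 to 376 RPM against 195 RPM made up the 5 positions among the 10 highest of both strains.

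The other 5 of the 10 highest stood at 54.9 to 81.7 RPM in WT. By the rule for peaks given further on, positions 2554, 2597, 2666 and 2776 were nonetheless peaks in WT, and 2549 was not. The A at position 2666, only 7 bases after 2659, had 567, 705 and 616 RPM in *hmo1Δ* against 75.5 RPM in WT, 8.33-fold higher and the largest rise in RPM in ITS1. The A at position 2549, 3 bases after 2546, had 508, 447 and 419 RPM against 54.9 RPM, 8.34-fold higher. Positions 2554, 2597 and 2776 were 5.17, 4.34 and 4.42 times the WT median. The A at position 2722, 9 bases after the end of the low stretch, had 281, 286 and 321 RPM against 60.1 RPM in WT. In the replicates the lowest value at each of these positions was over 3 times the WT median.

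By fold, among positions with at least 10 RPM in WT, the largest rises lay at low WT positions. Position 2618, directly after the shared peak at 2617, had 188, 169 and 138 RPM against 12.8 RPM, 12.9-fold higher. Positions 2598 and 2599, the first and the second after the peak at 2597, were 10.5-fold and 12.2-fold higher. Position 2589, directly after the peak at 2588, was 9.90-fold higher, and position 2548 was 9.05-fold higher. In all, 53 positions were at least 4-fold above WT in every replicate. Of these, 9 (17.0%) directly followed a WT peak, where 7.76% of ITS1 positions do, and 4 were at a WT peak. The WT peaks and the folds rest on the same WT values, so these counts are a description. The share of the gene's positions that pass this 4-fold rule was not taken, so the count cannot be called particular to ITS1 or shared with other regions. By the 2-fold rule ITS1 (46.9%) was like ITS2 (48.9%) and ETS2 (47.4%).

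Peaks were taken as positions that were highest within 5 positions on either side and at least 2 times the ITS1 median. ITS1 had 27 peaks in the *hmo1Δ* median and 28 in the WT median, of which 16 were at the same position (59.3% of the *hmo1Δ* peaks and 57.1% of the WT peaks). Single replicates had 25 to 27 peaks and shared 22 to 24 with each other. At 15 of the 16 shared peaks all replicates were above WT, with a median of 2.20-fold. The 16th, position 2605 (C), had 111, 99.3 and 137 RPM against 132 RPM in WT, with replicates on both sides. The 11 peaks found only in *hmo1Δ* had a median of 4.08-fold, and 10 of them were above WT in all replicates. The 12 found only in WT were mixed, with 6 above WT and 5 below in all replicates. Some of them, such as 2546 and 2554, failed the rule in the *hmo1Δ* median only because a higher position stood within 5 bases. For 2546 this did not hold in replicate 3, where it had 469 RPM and 2549 had 419 RPM. ITS2 had 13 peaks in *hmo1Δ* and 22 in WT with 10 shared, and ETS1 had 55 and 54 with 26 shared.

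**Figure D4:**
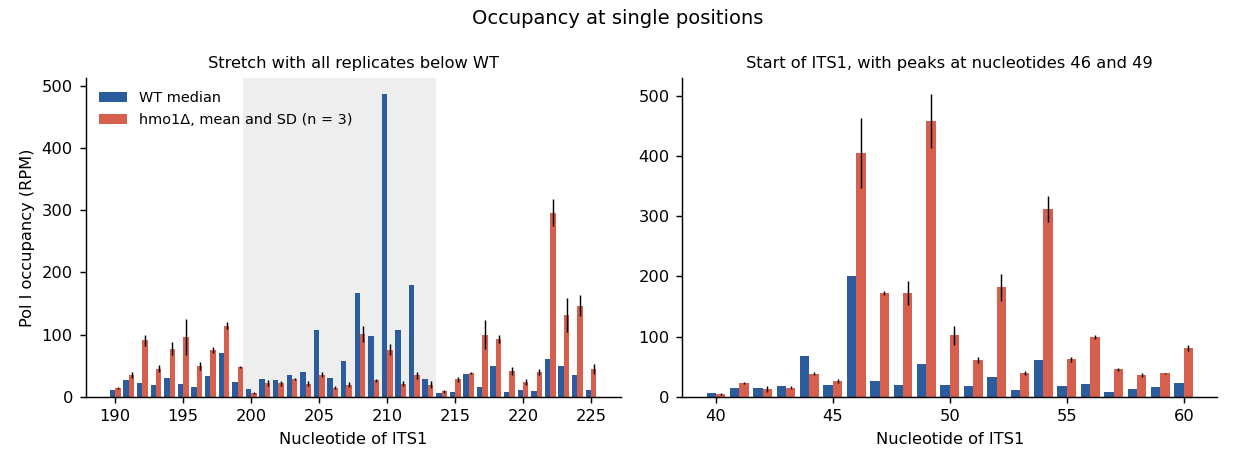
Pol I occupancy in RPM (y axis) at single nucleotides of ITS1 (x axis) in the WT median (blue) and *hmo1Δ* (red, mean and SD of 3 replicates), around the low stretch (left, shaded) and at nucleotides 40 to 60 (right). At nucleotide 210 WT has 488 RPM and *hmo1Δ* a mean of 75.7 RPM, whereas at nucleotide 49 WT has 54.9 RPM and *hmo1Δ* a mean of 458 RPM.

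Shared peaks were less sharp on their downstream side. The position directly after a shared peak held, as a median over the 16 peaks, 46.5%, 43.5% and 31.9% of the peak's own value in replicates 1, 2 and 3, and 21.9% in WT. Replicate 3 was the lowest, and all replicates were above WT. The ratio was higher than WT in all replicates at 13 of the 16 peaks and lower in all at 3, those at 2563, 2722 and 2739. On the upstream side of the ITS1 peaks the medians lay close together, with 24.8% ± 3.01 (SD, n = 3) in *hmo1Δ* and 24.7% in WT. At single peaks the upstream ratio was higher than WT in all replicates at 8 of the 16 and lower in all at 4. At the second position downstream the values were 14.5% ± 2.03 and 13.5%. ITS2 gave 29.9% ± 3.34 in *hmo1Δ* and 11.8% in WT directly after its 10 shared peaks, and ETS1 gave 26.2% ± 2.96 and 12.8% after 25. There the rise was not only downstream, since ETS1 also had 24.9% ± 2.06 against 14.1% directly before the peak and 20.2% ± 5.93 against 9.97% at the second position after it, and ITS2 had 19.4% ± 1.87 against 14.2% at that second position. Over all positions of ITS1, not only peaks, the ratio of the next position to the position was higher in all replicates at 149 (41.4%), close to the 38.1% over the gene. These ratios compare 2 positions of 1 profile, so they do not depend on the scaling to the total. The peaks were chosen on both strains' values, and the ratios are given as a description.

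**Figure D5:**
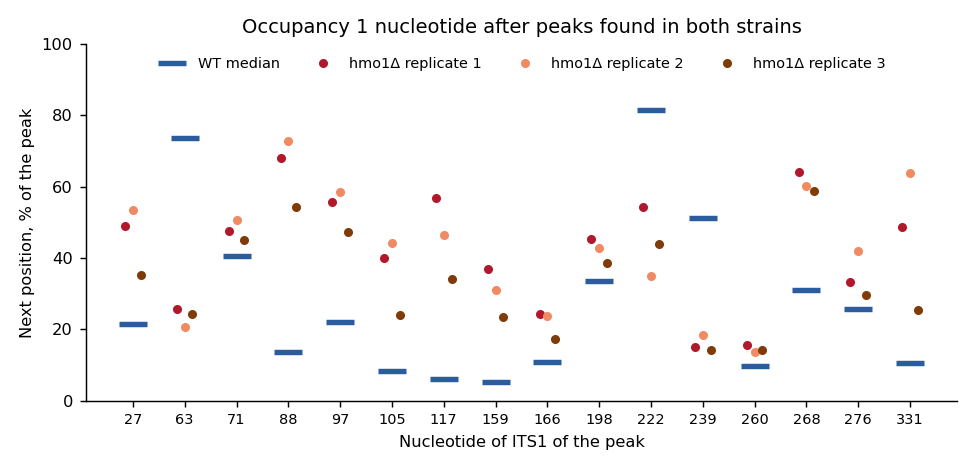
Occupancy of the next nucleotide in percent of the peak (y axis) at the 16 peaks that both strains have in ITS1 (x axis, nucleotide of the peak), for the WT median (blue bars) and each *hmo1Δ* replicate (points). At 13 of the 16 peaks all 3 replicates lie above WT, and at nucleotides 63, 222 and 239 all lie below.

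The bases at and before a position went with the size of the change. Occupancy at positions where the last base was U was 50.3, 49.1 and 43.7 RPM per position in the replicates and 16.2 RPM in WT, a log2 ratio of 1.56 ± 0.11 (SD, n = 3). Positions ending in A had 85.8, 87.3 and 88.6 RPM and 47.6 RPM in WT, a log2 ratio of 0.87 ± 0.02. C and G lay between, with 0.98 ± 0.04 and 1.10 ± 0.07. The place of A rested on the low stretch at 2700 to 2713, since without it, an alternative chosen after seeing the data, A and G were alike at 1.11 ± 0.03 and 1.11 ± 0.07, C was at 1.30 ± 0.04 and U at 1.65 ± 0.11. The 121 U positions took 24.5% ± 1.62 of ITS1 occupancy in *hmo1Δ* and 17.6% in WT, and the 110 A positions took 40.7% ± 1.00 and 47.1%. A remained the base with the highest mean level in both strains.

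A G just before the position was frequent at the highest positions, as the sequences printed above show. This feature was picked after the values were seen. Of the 10 highest *hmo1Δ* positions, 9 had a G directly before them, the exception being 2549, and of the 10 highest WT positions 5 did, while 20.2% of all ITS1 positions do. Over all peaks the strains did not show this gap, with a G before 14 of 27 *hmo1Δ* peaks (51.9%) and 16 of 28 WT peaks (57.1%). Positions after a G held 132, 143 and 138 RPM in the replicates and 53.7 RPM in WT, a log2 ratio of 1.36 ± 0.05. Those after A, C or U had lower means of 33.8 to 61.6 RPM in *hmo1Δ* and log2 ratios of 0.87 to 0.93. The higher ratio after a G also rested on the low stretch, without which it was 1.37 ± 0.05 after a G, 1.45 ± 0.05 after a C, 1.14 ± 0.03 after an A and 0.99 ± 0.04 after a U. In ITS2 the log2 ratio after a G was 1.28 ± 0.04, and after the other bases it was 0.82 to 1.01. In ETS1, whose sum hardly differed between the strains, it was 0.06 ± 0.10 after a G and -0.04 to 0.22 after the others.

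G content in the 10 bases ending at the position, its own base included, also went with the change. Pearson's r across all ITS1 positions, with log2(RPM + 1) for the change, was 0.297, 0.381 and 0.364 in the replicates, and 0.348 for their median. It was 0.287 in ITS2, 0.203 in ETS1 and 0.310 in ETS2. For U content the coefficient of the median was -0.335 in ITS1, -0.343 in ITS2, -0.098 in ETS1 and -0.245 in ETS2. The 67 positions with no G had a log2 ratio of summed occupancy of 0.29 ± 0.09, the 147 with 1 or 2 G had 0.79 ± 0.04, the 128 with 3 or 4 G had 1.35 ± 0.03 and the 19 with 5 G had 1.79 ± 0.10 (SD, n = 3). The low end of this order rested on the low stretch at 2700 to 2713. Without those positions, the 63 with no G had 1.03 ± 0.08 and the 137 with 1 or 2 G had 0.96 ± 0.04. The order of these classes thus turned around within about their SD. Without the stretch r was 0.304 for G content and -0.397 for U content. Windows of neighbouring positions overlap, and no p is given.

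The ends of ITS1 changed less evenly. The first positions with a value, 2502 to 2505, held 24.3 to 44.1 RPM in *hmo1Δ* and 23.2 to 51.1 RPM in WT, close to the spacer's median in *hmo1Δ* and above it in WT. The A at position 2504 was below WT in all replicates with 37.3, 41.8 and 44.1 RPM against 51.1 RPM. The last positions, 2857 to 2861, held 5.04 to 27.0 RPM in *hmo1Δ*, under its median. Position 2857 (A) was below WT with 13.8, 15.1 and 10.7 RPM against 29.9 RPM, and the 4 after it were above WT in all replicates. Leaving out 10 positions at each end moved the log2 ratio of ITS1 only to 1.10.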

How the data were processed

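The authors isolated RNA bound to HA-tagged Pol I, ligated a linker with a molecular identifier to the 3′ ends, removed adaptors (cutadapt 3.4), aligned the reads to R64-1-1 (STAR 2.7.1a) and counted coverage with bedtools 2.28.0, per the submitters' processing notes and the methods. How reads were assigned among rDNA copies is not given in the sources used here. The deposited *hmo1Δ* columns hold RPM, and the authors' WT median is in RPM too. The deposited WT coefficient of variation is the authors' own. Another 3 columns of single WT samples belong to another series and were not used, nor were the authors' means, intervals, differences, ratios and p-values.

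Occupancy was summed over ITS1, and log2 ratios of each replicate to the WT median were summarised as mean and SD. At single positions folds are means of the 3 replicates over the WT median. Depth came from the smallest step between values, which 1 read is worth. All ITS1 values came out whole within 0.001 reads, and the 3 reads that a count of 0 allows equal 0.811, 1.51 and 1.07 RPM. Counting errors cover counting error only. Positions named were the 10 highest in each strain, the 10 largest rises and falls in RPM and 5 by fold among WT values of at least 10 RPM, with all replicates on that side, and the 5 at each end. Positions outside this rule (2498, 2588 and 2605, 2563 and 2739) were named after their values were seen. Members, lists and alternatives were chosen with earlier results of these data known. The sequences were read from the base column of the deposited table. Calculations used Python 3.11.15, numpy 2.4.6, pandas 2.3.3, scipy 1.17.1 and matplotlib 3.10.9, and were tested on simulated profiles.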

Additional observations from a re-analysis of the deposited data

How the results depend on the processing

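Of 103 alternative values, 75 stayed on the same side and within the replicate spread (counts within 1.5 times), 27 moved and 1 turned sign. The 75 include all values with 1 replicate left out. The one that turned was the difference between ITS1 and ITS2, from 0.09 to -0.026 without 10 positions at each end (exact sign-flip p = 0.25 in both). The log2 ratio of ITS1, 1.08, became 0.54 when scaled to the 4 spacers, 1.03 as the median over positions with a pseudocount of 1 RPM and 1.25 without the longest run below WT. The share of 2.35% became 2.29% without the ends and 2.09% without the 5 highest positions. Scaled to the total of ITS1 itself, 155 positions were above WT and 154 below, in place of 289 and 38, and the log2 ratio of the low stretch was -2.74. The Spearman coefficient with WT, 0.708 ± 0.027, was 0.531 over positions of at least 10 RPM in WT and 0.749 without the low stretch. The correlation with G content, 0.348, was 0.229 over the 5 bases ending at the position. As medians over positions, segments 1 to 6 gave 0.91, 1.24, 0.86, 0.75, 1.17 and 1.14. Without the position with the highest *hmo1Δ* median, segments 1 to 4 gave 1.22, 1.19, 1.64 and 0.28 and segment 6 gave 1.13. In segment 4 this left out 2722 and kept 2710, the highest position in WT. The shifts under another scaling follow from the totals that each column was divided by. The cause of the other shifts was not tested. The alternatives for the low stretch, the ratios by base without it (5 of 8 moved, given above) and the signal after shared peaks were chosen after seeing the data.

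With each replicate left out, the log2 ratio of ITS1 was 1.07 to 1.09 and that of the low stretch -1.74 to -1.59. Positions above WT were 294 to 302 and below 41, shared peaks 16, and the signal after shared peaks 37.7% to 45.0%. These ranges are no test of stability. A mean of 3 replicates cannot move by more than its SD when 1 is left out. A count of positions with all replicates on 1 side can only rise. No paired analysis was possible because all samples belong to 1 group. Depth limits single low positions most, and the WT values carry no error of their own.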
